A study of Xenopus laevis with 11 samples.

Results

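AP-2 factors are transcription factors encoded by the tfap2 genes. They were read here by every probe set whose single platform gene symbol, without regard to case or to the suffix .L or .S, starts with tfap2. This rule found 2 probe sets among 15491 that are not controls, 1 for tfap2a.L and 1 for tfap2b.L. In the RefSeq gene table of the Xenopus laevis assembly v10.1, tfap2a.L lies on chromosome 6L and tfap2b.L on chromosome 5L, where .L and .S mark the long and short chromosomes of a pair of related copies in this allotetraploid frog. That table lists 9 tfap2 genes. The other 7, namely tfap2a.S, tfap2b.S, tfap2c.L and both copies of tfap2d and tfap2e, were not analysed here, and whether the 2 probe sets also bind transcripts of the .S copies was not tested.

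RNA came from tissue microdissected from Xenopus laevis embryos grown at 15 °C and was hybridised to 11 Affymetrix arrays, 1 sample an array. The crest-forming series held 2 arrays of stage 12 neural plate, 3 of stage 14 neural border and 2 of stage 18 neural border. Reference tissue came as 3 arrays of stage 18 anterior neural fold, a stretch of the border that makes no neural crest, and 1 array of animal cap explant grown until stage 14, ectoderm that becomes epidermis. The labels give no genotype or treatment for any group and do not say how many embryos went into a sample, and they call the arrays of a group biological replicates. Separate clutches are nowhere stated, and p-values reflect only the spread between these arrays.

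AP-2 proteins bind GC-rich DNA as dimers through a basic helix-span-helix domain. In vertebrate embryos tfap2a is active in non-neural ectoderm, at the neural border and in neural crest, and in frogs it is needed for epidermal gene expression as well as for crest. The related factor tfap2b is known from neural crest and its derivatives. The design allows both genes to be followed from the plate into the border and to be set against border tissue without crest and against epidermis.

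Values below are log2 intensities, on which a difference of 1 is a 2-fold difference, and they compare arrays for 1 probe set and never the levels of different probe sets. Array medians over all probe sets lay between 4.94 and 5.04, and arrays of a group correlated at 0.983 to 0.993. The 17 tag control probe sets, made to bind nothing from the frog, had a 95th percentile of 3.72, and a level below it was taken as within background. Precision is limited throughout by how few arrays there are.

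The tfap2a.L transcript was detected in every tissue. The stage 12 plate arrays read 8.10 and 7.76, the stage 14 border arrays 9.03, 9.23 and 9.28, and the stage 18 border arrays 9.27 and 9.26. The anterior neural fold arrays read 6.89, 6.81 and 7.08, and the animal cap array read 8.27. The 5 border arrays lay above all others and the 3 anterior neural fold arrays below all others, with plate and animal cap between them. The mean of the stage 14 border was 9.18 ± 0.13 (SD, n = 3) and that of the stage 18 border 9.27 ± 0.007 (SD, n = 2), against 7.93 ± 0.24 (SD, n = 2) for the plate and 6.93 ± 0.14 (SD, n = 3) for the fold. In these bulk samples fewer cells of a type and less RNA per cell cannot be told apart.

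The tfap2b.L transcript was detected in the border and, at a lower level, in the anterior neural fold. The stage 12 plate arrays read 2.71 and 2.91 and the animal cap array read 3.67, all within background. The stage 14 border arrays read 7.83, 8.08 and 8.08, the stage 18 border arrays 8.81 and 9.05, and the anterior neural fold arrays 4.68, 3.94 and 5.00. Every border array was thus far above every other array, and the 3 anterior fold arrays lay above background and above the plate. The group means were 7.99 ± 0.14 (SD, n = 3) at stage 14, 8.93 ± 0.17 (SD, n = 2) at stage 18 and 4.54 ± 0.54 (SD, n = 3) in the anterior neural fold.

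**Figure D1:**
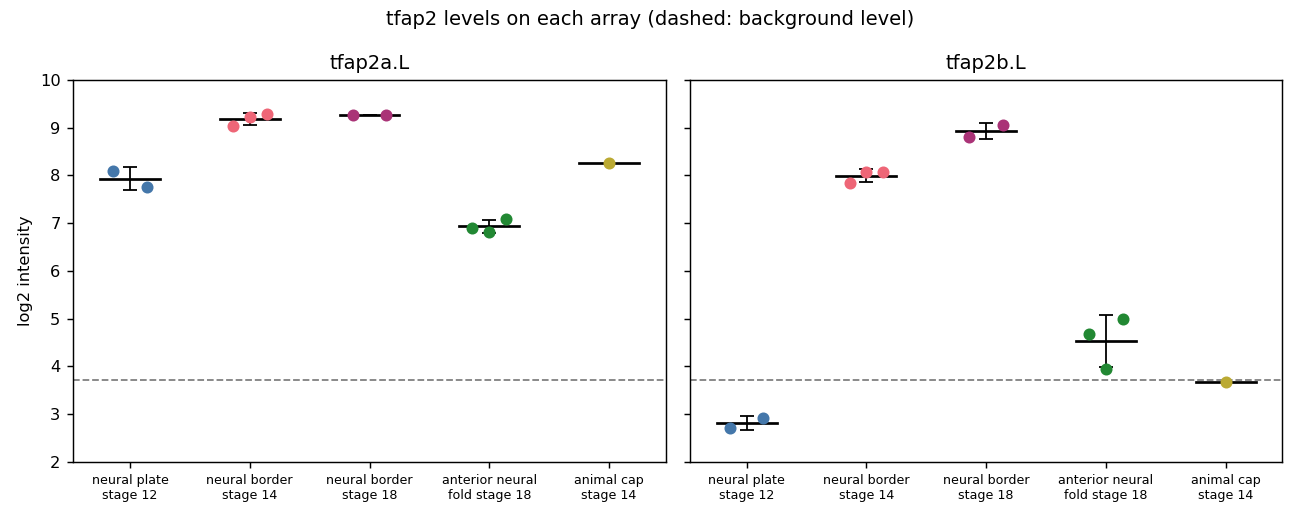
Log2 intensity of tfap2a.L (left) and tfap2b.L (right) on each of the 11 arrays, by tissue. Points are arrays, bars are group means with the SD where a group has over 1 array, and the dashed line is the background level of 3.72. The tfap2a.L values lie well above that line in all groups and are lowest in the anterior neural fold, while tfap2b.L lies under the line in the plate and the animal cap.

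Stage 14 border and stage 12 plate were compared to ask what changes as crest-forming tissue emerges. Both genes rose. The tfap2a.L level rose 2.38-fold (log2 fold change 1.25, SE 0.14, limma adjusted p = 7.19e-05). The tfap2b.L level rose at least 19.3-fold, measured against the background level, and 36.3-fold as fitted (log2 fold change 5.18, SE 0.26, adjusted p = 8.03e-07). In this comparison 41% of all probe sets passed the adjusted p of 0.05, so a call alone is common here. Stage and tissue changed together. The 3' minus 5' difference of the beta actin control probe sets also parted these groups, at -2.56 to -2.46 in the plate against -3.08 to -2.75 in the stage 14 border. Over all arrays but the plate it ran from -3.14 to -2.52. Those of the controls a1Act, a3Act and Gapd overlapped between plate and stage 14 border. The part of the beta actin difference in the result was not tested.

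From stage 14 to stage 18 in the neural border tfap2a.L stayed within the spread of its arrays, with a log2 difference of 0.09 (SE 0.14, adjusted p = 0.795) and overlapping groups. For tfap2b.L both stage 18 arrays lay above all 3 stage 14 arrays. The log2 difference of 0.93 (SE 0.26) did not pass (adjusted p = 0.0622, and 0.0133 to 0.23 over the alternatives), in a comparison where 6.56% of all probe sets did. It passed with dim probe sets left out (adjusted p = 0.0465), with only the arrays compared (0.0475) and with a trended and robust eBayes step (0.0493). It also passed without anterior neural fold replicate 2 (0.0133) or replicate 3 (0.0429), arrays of another tissue that enter only through the shared estimate of the spread.

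The stage 18 border and the anterior neural fold of the same stage were compared to set crest-forming beside other border tissue. The fold is anterior by its label, so crest formation and position in the embryo cannot be told apart here. Both genes were higher in the crest-forming border. The tfap2a.L level was 5.06-fold higher (log2 fold change 2.34, SE 0.14, adjusted p = 8.32e-06) and tfap2b.L was 21-fold higher (log2 fold change 4.39, SE 0.26, adjusted p = 8.32e-06). In this comparison 5.97% of all probe sets passed. Among the 512 probe sets that were higher in the border, tfap2b.L ranked 3 and tfap2a.L ranked 42 by log2 fold change. Both were also lower in the anterior neural fold than in the stage 14 border, tfap2a.L by a log2 difference of -2.25 (SE 0.12, adjusted p = 5.44e-06) and tfap2b.L by -3.46 (SE 0.23, adjusted p = 2.02e-05), where 14.8% of all probe sets passed. Some 3' minus 5' differences of control probe sets parted the stage 18 groups too, at -0.77 to -0.32 in the border against -1.50 to -1.17 in the fold for the control a1Act, and at 0.165 to 0.74 against -0.20 to -0.09 for a3Act, while those of beta actin and Gapd overlapped. Their part in the result was not tested.

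Against the single animal cap array, whose spread is assumed to equal that of the replicated groups, both border stages were higher for both genes. The stage 14 border was 1.88-fold higher for tfap2a.L (log2 fold change 0.91, SE 0.17, adjusted p = 0.00321) and at least 19.3-fold higher for tfap2b.L (20-fold as fitted, adjusted p = 1.61e-05), with 30.9% of all probe sets past the threshold. The stage 18 border was 2-fold higher for tfap2a.L (log2 fold change 1.00, SE 0.19, adjusted p = 0.00259) and at least 36.9-fold higher for tfap2b.L (adjusted p = 8.28e-06), with 33.2% past. The stage 18 border also stood above the stage 12 plate, 2.53-fold for tfap2a.L (adjusted p = 7.23e-05) and at least 36.9-fold for tfap2b.L (adjusted p = 5.53e-07), with 44.5% past.

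The reference tissues differed from each other as well. The anterior neural fold was lower than the plate for tfap2a.L (2-fold, log2 SE 0.14, adjusted p = 0.000206) and higher than the plate for tfap2b.L (log2 fold change 1.73, SE 0.26, adjusted p = 0.000342, at least 1.76-fold against background), with 47.5% of all probe sets past. It was also lower than the animal cap for tfap2a.L (log2 fold change -1.34, SE 0.17, adjusted p = 0.000273), with 38.6% past, while its tfap2b.L difference of 0.87 (SE 0.33) did not pass (adjusted p = 0.0604, range over the alternatives 0.00254 to 0.155). Plate and animal cap were not separated for either gene, at -0.34 (SE 0.19, adjusted p = 0.206) for tfap2a.L and -0.86 (SE 0.35, adjusted p = 0.0876) for tfap2b.L, whose values are both within background, with 31.3% of all probe sets past. That tfap2b.L difference passed with only the arrays compared (adjusted p = 0.0397) and without anterior neural fold replicate 2 (0.0121) or 3 (0.0497).

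In order of level, tfap2a.L thus ran from anterior neural fold through plate, animal cap and stage 14 border to stage 18 border, and 2 neighbouring pairs, plate with animal cap and the border stages with each other, did not pass. For tfap2b.L the order was plate, animal cap, anterior neural fold, stage 14 border and stage 18 border, and among neighbours only the step from anterior neural fold to stage 14 border passed.

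**Figure D2:**
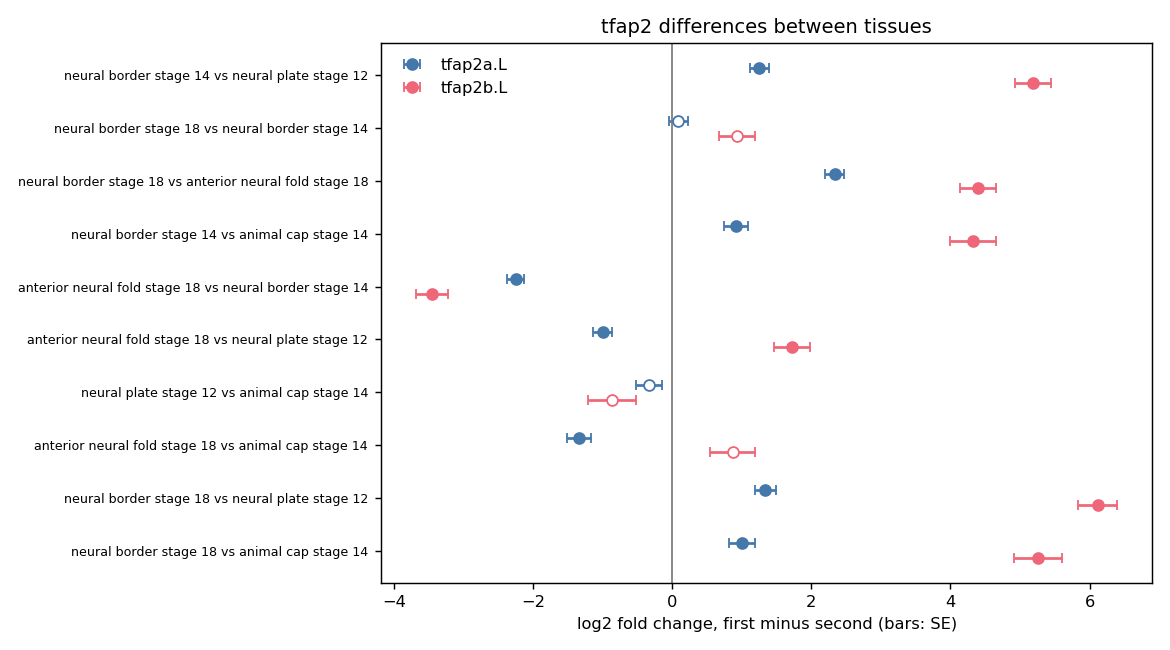
Log2 fold change of tfap2a.L (blue) and tfap2b.L (red) in all 10 pairwise comparisons of tissues, first tissue minus second, with the SE of the limma fit. Filled symbols passed an adjusted p of 0.05 and open symbols did not. The genes have opposite signs where the anterior neural fold is set against the plate, where tfap2a.L is lower and tfap2b.L higher by 1.73. Signs are also opposite for the fold against the animal cap (tfap2a.L -1.34, tfap2b.L 0.87), where tfap2b.L did not pass.

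To compare the profiles directly, the tfap2a.L value was subtracted from the tfap2b.L value on each array and the change of this difference between tissues was tested. The difference itself has no meaning as a ratio of the transcripts, because the probe sets differ. Its change describes unequal change of the 2 probe set values, and whether the transcripts changed unequally was not tested. It was -5.12 ± 0.38 (SD, n = 2) in the plate, -1.19 ± 0.03 (SD, n = 3) in the stage 14 border and -0.34 ± 0.18 (SD, n = 2) in that of stage 18. The anterior neural fold stood at -2.39 ± 0.42 (SD, n = 3) and the animal cap at -4.59. No pair of these groups overlapped. From plate to stage 14 border the difference rose by 3.93, and from stage 14 to stage 18 border by 0.85. At the latter step neither gene passed the limma test on its own. Between anterior neural fold and stage 18 border it rose by 2.05. Over 6 comparisons of groups with more than 1 array, the exact two-sided permutation test gave p = 0.1 in 5 and p = 0.333 for stage 18 border against plate, each the smallest that so few arrays allow (0.12 and 0.333 after Benjamini-Hochberg adjustment), so this test cannot reach 0.05 here and only describes groups that do not overlap. Since tfap2b.L was within background in the plate and the animal cap, the changes from those tissues are limited by that floor.

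**Figure D3:**
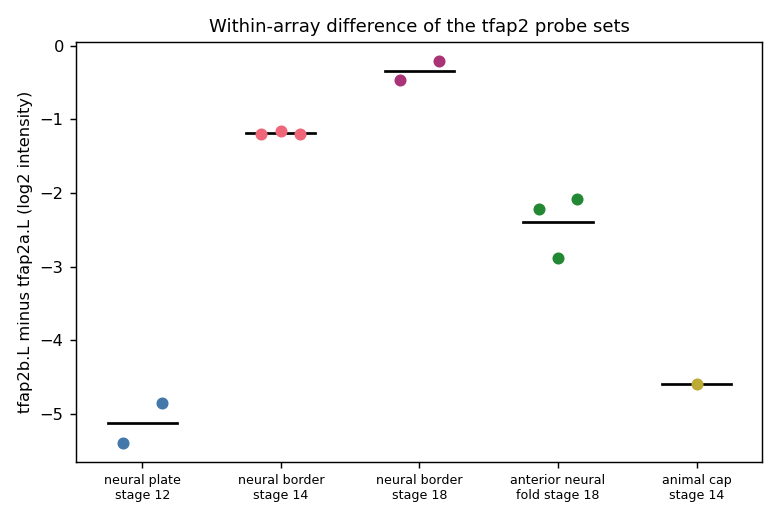
Within-array difference of the log2 intensities, tfap2b.L minus tfap2a.L, on each of the 11 arrays. Points are arrays and bars are group means. The means run from -5.12 in the plate to -0.34 in the stage 18 border, and the groups do not overlap.

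Marker genes were read beside these levels to check the tissue labels. The 4 measured of 6 neural crest markers (snai2.L, foxd3.S, sox9.S and sox10.L) had mean levels of 7.45 to 7.73 on the stage 14 border arrays and 8.06 to 8.21 on the stage 18 border arrays, against 3.68 to 4.81 in the anterior neural fold, 3.91 to 3.93 in the plate and 3.09 in the animal cap, where all 4 were within background. In the plate snai2.L and sox10.L were within background too, and the highest was foxd3.S (6.02). In the anterior neural fold sox10.L was within background, and the highest was sox9.S (5.99). The 5 measured of 6 epidermis markers averaged 9.50 in the animal cap, 5.50 to 5.57 in the plate, 7.22 to 7.82 in the stage 14 border, 8.69 to 8.84 in the stage 18 border and 8.18 to 8.50 in the fold. The grhl3.L level was within background in all groups but the animal cap. All 6 genes listed as neural plate markers were measured. They averaged 7.01 to 7.46 in the plate, 8.08 to 8.48 in border and fold, and 5.25 in the animal cap. Their mean was thus lower in the plate than in border and fold, and it does not check the plate label. Their direction differed by gene. From plate to stage 14 border sox3.S went from 10.66 to 8.85, sox11.S from 11.73 to 10.65 and sox2.L from 9.48 to 9.38. The ncam1.S level went from 3.86 to 7.49, tubb2b.S from 3.54, within background, to 7.43 and nrp1.L from 4.12 to 4.96. In the animal cap nrp1.L stood at 4.11, level with the plate, so it did not mark the plate here. The mean of the 4 measured of 5 preplacodal and cement gland markers was highest in the anterior neural fold, at 6.36 to 6.61. That mean rested on pitx1.L (7.38) and ag1.L (11.64). The cpe.L level was within background in every group, and eya1.L in all groups but the fold, where it stood at 3.87.

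Markers of other germ layers were also read. Of 4 measured paraxial and axial mesoderm markers, all were within background in 4 of the 5 groups, and in the plate tbxt.S, which encodes brachyury, stood at 5.93 and the myogenic factor gene myf5.L at 4.02. The 4 blood and lateral mesoderm markers averaged 3.26 to 3.58 on the arrays, and of these lmo2.S stood above background in the fold (4.37) and the stage 18 border (4.09). The gata1.L level was slightly above background, at 3.76 to 3.99, in all groups but the stage 18 border (3.68). Of 3 measured endoderm markers, sox17a.S was within background in every group, while a2m.S, for a secreted protease inhibitor, reached 9.02 in the fold and 7.15 in the stage 14 border. The third, gata6.L, stood at 3.84 to 4.15 in all groups but the stage 18 border (3.46, within background).

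The mean of the epidermis markers and tfap2a.L did not share an order. The anterior neural fold had the lowest tfap2a.L level and a mean of the epidermis markers above that of the stage 14 border. Of these markers krt12.4.L did not follow the mean there, at 9.58 in the fold and 9.68 in the stage 14 border. From stage 14 to stage 18 border the mean of these markers was higher at a tfap2a.L level within the spread. The part of epidermal cells in the tfap2a.L levels was not tested. The mean of the crest markers and tfap2b.L were both highest in the stage 18 border and next in the stage 14 border, but foxd3.S was higher in the plate (6.02) than in the anterior neural fold (4.26), unlike tfap2b.L. Among the anterior neural fold arrays, replicate 2 had the lowest tfap2b.L value of the 3, 3.94, and also the lowest snai2.L (2.95 against 4.58 and 4.83), foxd3.S (3.67 against 4.25 and 4.87) and sox9.S (5.33 against 6.23 and 6.39). This was not limited to crest genes, since the same array was also lowest for tfap2a.L and for the epidermal factor gene tp63.L (4.42 against 5.79 and 5.41). It was lowest too for the neural markers sox2.L (9.82 against 10.26 and 10.11) and sox3.S (9.50 against 10.11 and 9.94). Some other markers went the other way. The array was highest for krt12.4.L (9.612 against 9.509 and 9.606) and pitx1.L (7.65 against 7.59 and 6.91). It was also highest for ag1.L (11.85 against 11.65 and 11.42) and a2m.S (9.34 against 8.78 and 8.93). For krt70.S, itln1.L and tubb2b.S the array lay between the others. Without it the stage 18 border exceeded the anterior neural fold by 4.09 for tfap2b.L (adjusted p = 3.73e-06), and the anterior neural fold exceeded the animal cap by 1.17 (adjusted p = 0.00254). The part of crest cells, or of a general shift of that array, in the anterior neural fold values was not tested.

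The genes most like each AP-2 gene were found by Pearson correlation over the 11 arrays among 5527 named probe sets with a range of at least 1. Arrays of a group are close to each other, so such an r mostly compares 5 levels. The genes were picked on these arrays, so that they share differences with the AP-2 genes follows from the choice, and their values are a description with no test. For tfap2b.L the 5 genes were pcdh8l.S (r = 0.993), a protocadherin gene, pdgfra.L (r = 0.992), which encodes a platelet-derived growth factor receptor, snai2.L (r = 0.986), a zinc finger repressor gene of neural crest, glipr2.S (r = 0.982) and mfap2.L (r = 0.977), which encodes a protein of extracellular microfibrils. In frog embryos a protocadherin of this kind in crest is a known target of AP-2.

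All 5 were higher in the stage 14 border than in the plate, between 3.83-fold for glipr2.S and at least 20.3-fold for snai2.L, which lay within background in the plate. They were also higher in the stage 18 border than in the anterior neural fold, between 3.32-fold and 16.1-fold as fitted. The 16.1-fold is that of snai2.L, which read 2.95, within background, on anterior neural fold replicate 2, so its size is limited by that floor. The values of the 5 genes were less alike at the step from stage 14 to stage 18. The snai2.L level was 8.07 ± 0.08 (SD, n = 3) and then 8.13 ± 0.11 (SD, n = 2), a log2 difference of 0.06 (SE 0.43). The pcdh8l.S level went from 7.36 ± 0.18 (SD, n = 3) to 8.23 ± 0.04 (SD, n = 2), a log2 difference of 0.88 (SE 0.22) beside the 0.93 of tfap2b.L. The mfap2.L difference was 1.06 (SE 0.28).

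For tfap2a.L the 5 genes were ets1.S (r = 0.955), an ETS transcription factor gene, xmc.L (r = 0.940), guk1.S (r = 0.912), which encodes guanylate kinase, itga5.L (r = 0.907), the integrin subunit of the fibronectin receptor, and pygm.S (r = 0.907), which encodes a glycogen phosphorylase. All 5 were lower in the anterior neural fold than in the stage 18 border, ets1.S at least 1.74-fold and the other 4 between 2.19-fold for itga5.L and 4.69-fold for xmc.L. The stage 14 border mean was above that of the plate at least 1.58-fold for ets1.S, 2.41-fold for guk1.S and 1.81-fold for itga5.L. It was 1.52-fold above for xmc.L and 1.17-fold for pygm.S. For pygm.S these groups overlapped, at 6.55 to 6.87 in the border and 6.29 to 6.59 in the plate. The ets1.S probe set was dim, at 4.38 ± 0.20 (SD, n = 3) and 4.52 ± 0.38 (SD, n = 2) in the border and within background elsewhere. Between them the AP-2 genes correlated at 0.775, and 42 of the 5527 probe sets had a higher r with tfap2a.L and 178 with tfap2b.L.

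**Figure D4:**
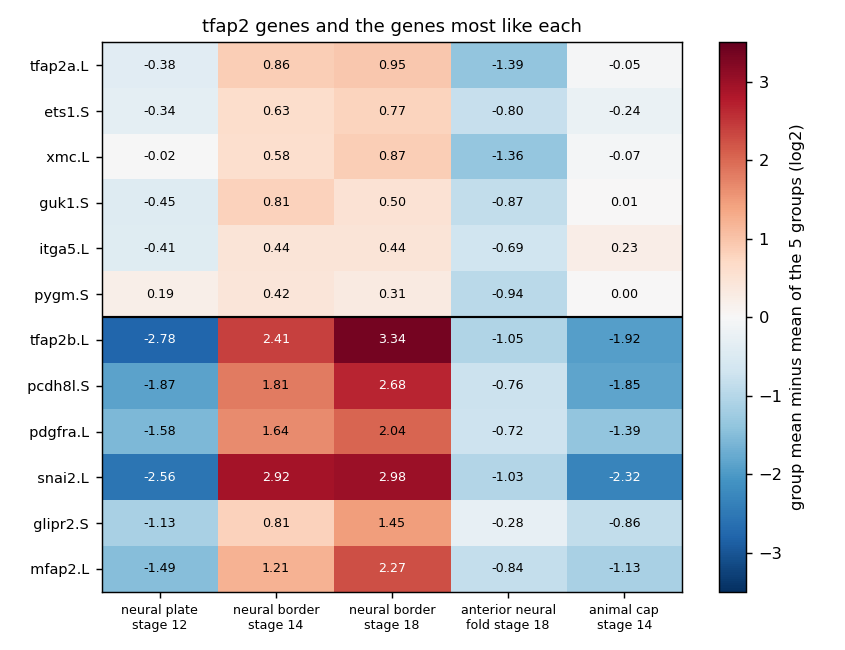
Group mean minus the mean over the 5 groups (log2) for tfap2a.L and tfap2b.L and, under each, the 5 genes of the highest Pearson r over the 11 arrays. Colour runs from blue (below the mean of the groups) to red (above it). The genes were picked for this likeness, and those under tfap2b.L share low plate and animal cap levels. Those under tfap2a.L share the low anterior neural fold level, though ets1.S lies within background there, in the plate and in the animal cap.

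Genes that work with AP-2 factors were read next. Of 10 listed co-regulators 5 were measured. The KCTD15 protein is known to bind AP-2 and inhibit it, and in zebrafish and frog it limits crest formation. The kctd15.L arrays read 6.47 to 6.60 in the plate, 7.06 to 7.57 in the stage 14 border, 6.23 to 6.35 in the stage 18 border and 5.17 to 5.54 in the anterior neural fold, with 7.81 in the animal cap. No groups overlapped, and plate and stage 18 border lay closest. It rose from plate to stage 14 border (log2 fold change 0.82, SE 0.16, adjusted p = 0.00275) and fell by 1.06 from there to stage 18 (SE 0.16, adjusted p = 0.00698), a call lost with only the arrays compared (adjusted p = 0.051). The stage 18 border was above the anterior neural fold by 0.94 (SE 0.16, adjusted p = 0.00757), which did not pass without stage 18 border replicate 2 (adjusted p = 0.0654).

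CITED proteins are adaptors that bring the CBP and p300 coactivators to AP-2. The cited4.L level was 10.94 ± 0.09 (SD, n = 2) in the plate. It was 9.29 ± 0.28 (SD, n = 3) and 8.85 ± 0.10 (SD, n = 2) in the border at stages 14 and 18, 7.67 ± 0.14 (SD, n = 3) in the fold and 10.15 in the animal cap. It fell by 1.65 from plate to stage 14 border (SE 0.16, adjusted p = 3.45e-05), opposite in direction to both AP-2 genes, and was 2.27-fold higher in the stage 18 border than in the anterior neural fold (adjusted p = 0.00185), as they were. It was lower in the stage 14 border than in the animal cap (log2 fold change -0.86, adjusted p = 0.00988), a call lost with only the arrays compared (0.0583). Of all probe sets 41% passed between stage 14 border and plate, 6.56% between border stages and 5.97% between stage 18 border and fold. Against the animal cap the share was 30.9%. The other 3 measured members did not pass in these 4 comparisons. Of these, cited2.L differed by -0.30 (SE 0.26, adjusted p = 0.419) between stage 14 border and plate, crebbp.L, for CBP itself, by 0.26 (SE 0.27, adjusted p = 0.518) and yeats4.S, for a reader of acetylated histones, by 0.02 (SE 0.17, adjusted p = 0.937).

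Of 18 listed genes downstream of AP-2 at the border and in crest, 14 were measured. From plate to stage 14 border 9 rose and 0 fell, with a median log2 fold change of 2.08 against 0.01 over all probe sets, of which 19.6% rose and 21.4% fell. With genes within background raised to that level the median was 1.77. After quantile normalization, or without stage 14 border replicate 1, 1 was lower. Those that rose were led by snai2.L, sox9.S (26.3-fold, adjusted p = 2.28e-06), pcdh8l.S (at least 11.8-fold, adjusted p = 2.24e-06) and the homeobox gene msx2.L (8.31-fold, adjusted p = 2.78e-06). The 5 that did not pass included mitf.L, within background in the stage 14 border (2.88) and the plate (2.99). They also included pax3, read here by the brightest of its 5 probe sets. That probe set overlapped between the groups (log2 difference 0.58, SE 0.50, adjusted p = 0.418). Its mean was 7.62 in the stage 14 border, below the anterior neural fold (9.125) and the animal cap (8.98). The other pax3 probe sets are not shown, so this does not speak for the gene as a whole. At stage 18, 8 of 14 were higher in the border than in the anterior neural fold and 0 lower, with a median of 1.68 against 0.002 over all probe sets, of which 3.31% were higher and 2.67% lower. The forkhead gene foxd3.S was 16.1-fold higher as fitted (adjusted p = 3.4e-05) and the SoxE gene sox10.L at least 9.79-fold (adjusted p = 7.8e-06). On anterior neural fold replicate 2 foxd3.S read 3.67, within background, so the size of its fold is limited by that floor.

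From stage 14 to stage 18 in the border 3 of the 14 rose, sox10.L by 1.77 (SE 0.23, adjusted p = 0.00324), ets1.L by 1.44 (SE 0.25, adjusted p = 0.00989) and pcdh8l.S by 0.88 (SE 0.22, adjusted p = 0.0478), and 0 fell, where 3.78% of all probe sets rose and 2.78% fell. The ets1.L call was lost with only the arrays compared (adjusted p = 0.061). That of pcdh8l.S was lost in 11 of 16 alternatives (adjusted p 0.0158 to 0.167), among them every left-out array except anterior neural fold replicate 2. Against the animal cap 8 of 14 were higher in the stage 14 border and 1, the receptor tyrosine kinase gene kit.S, was lower (log2 fold change -1.21, SE 0.24, adjusted p = 0.0038, and 2 lower without stage 14 border replicate 1), with 15.1% of all probe sets higher and 15.8% lower. Most members of this list are also crest markers, so the list and the tissue labels are not independent.

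Of 14 listed genes downstream of AP-2 in epidermis, 10 were measured, and they stood apart from both AP-2 genes in the comparison with the animal cap. There 8 of 10 were lower in the stage 14 border and 0 higher, beside 15.8% and 15.1% of all probe sets, with a median log2 fold change of -2.57 (-2.29 with genes within background raised to that level) against -0.04 over all probe sets, while tfap2a.L was higher in the border. The zinc finger gene gata2.L was 18.5-fold lower (adjusted p = 5.11e-05), grhl3.L, a grainyhead factor gene, at least 4.46-fold lower (adjusted p = 1.11e-06), and the epidermal keratin gene krt12.4.L 7.1-fold lower (adjusted p = 0.00016). From plate to stage 14 border 6 of 10 rose and 0 fell, beside 19.6% and 21.4% of all probe sets, with a median of 0.81, led by krt12.5.S at 22.3-fold (adjusted p = 2.52e-05) and krt12.4.L at 17.5-fold (adjusted p = 2.43e-06). The homeobox gene dlx3.S, 1.89-fold higher (adjusted p = 0.0264), did not pass without plate replicate 1 (0.156) or 2 (0.0696) or without stage 14 border replicate 2 (0.0584) or 3 (0.0856). The members krt12.4.L, krt70.S, tp63.L and grhl3.L are also epidermis markers read above, so this list and the tissue labels are not independent.

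Between stage 18 border and anterior neural fold this epidermal list differed from the AP-2 genes again. Only krt12.4.L was higher in the border (2.52-fold, adjusted p = 0.0128), a call lost without stage 18 border replicate 2 (adjusted p = 0.116), and 9 of 10 did not pass, with a median of -0.01. Of all probe sets 3.31% were higher. With only the arrays compared 2 of the 10 were higher. From stage 14 to stage 18 the keratin genes krt12.4.L and krt70.S rose, where 3.78% of all probe sets did (2.35-fold, adjusted p = 0.0221, and 1.4-fold, adjusted p = 0.0369). The krt70.S call was lost in 11 of 16 alternatives (adjusted p 0.014 to 0.166), and that of krt12.4.L in 3, with only the arrays compared (0.111) and without stage 14 border replicate 3 (0.0522) or stage 18 border replicate 2 (0.121).

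Signals that induce AP-2 genes at the border include Wnt, BMP and FGF ligands. The upstream list read here also holds axin2.S and bambi.L, which are targets of such signals. It shares dlx3.S and dlx5.L with the epidermal list. Of 27 listed upstream genes 23 were measured, and 11 rose, 6 fell and 6 did not pass from plate to stage 14 border, with a median of 0.47. Of all probe sets 19.6% rose and 21.4% fell, so the share that fell was near that of all. Without plate replicate 2 only 3 were lower. The wnt8a.L level, for a ligand, went up 13.5-fold as fitted (adjusted p = 4.39e-07). Its plate mean was 4.02, only 0.298 above the background level, so the size of this fold is limited by that floor. The level of the Wnt receptor gene fzd3.L went up 5.38-fold (adjusted p = 1.33e-05) and that of the repressor gene hes1.S 4.89-fold (adjusted p = 0.000136). The bmp4.S level was at least 3.71-fold lower (log2 difference as fitted -2.47, SE 0.22, adjusted p = 1.91e-05). At stage 18, 6 were higher in the border than in the anterior neural fold and 3 lower, with 14 not past, beside 3.31% and 2.67% of all probe sets. In that comparison wnt8a.L was at least 7.07-fold higher (adjusted p = 3.93e-06), fgf3.L at least 2.94-fold (adjusted p = 0.000606) and wnt3a.S at least 3.91-fold (adjusted p = 7.46e-05), and hes1.S was 4.92-fold lower (adjusted p = 0.00093).

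Within the border, from stage 14 to stage 18, 1 of the 23 rose and 3 fell, and 2 rose without stage 18 border replicate 1. Of all probe sets 3.78% rose and 2.78% fell, so the share that rose was near that of all. The wnt8a.L level fell by 1.23 (SE 0.16, adjusted p = 0.00329). The zinc finger gene zic1.S fell by 0.66 (SE 0.11, adjusted p = 0.0094) and zic2.S by 0.75 (SE 0.11, adjusted p = 0.00533), the latter lost with only the arrays compared (adjusted p = 0.051). The wnt3a.S rise of 0.86 (SE 0.17, adjusted p = 0.0167) was lost with only the arrays compared (0.067) and without stage 14 border replicate 3 (0.0632) or stage 18 border replicate 2 (0.0902). Against the animal cap 13 of 23 were higher in the stage 14 border and 5 lower, beside 15.1% and 15.8% of all probe sets. The zic1.S level was 56.9-fold higher as fitted (adjusted p = 2.3e-08). The single animal cap array read 3.742 for zic1.S, only 0.019 above the background level, so the size of this fold is limited by that floor. The Wnt target axin2.S was 14.2-fold higher (adjusted p = 6.38e-06). The level of bambi.L, a BMP target that encodes a pseudoreceptor, was 30.5-fold lower (adjusted p = 1.26e-06).

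Preplacodal genes mark the neighbouring part of the border, where AP-2 is also known to act. Of 10 listed, 5 were measured. At stage 18 pitx1.L was 10.9-fold lower as fitted in the crest-forming border than in the anterior neural fold (adjusted p = 1.1e-05), opposite to both AP-2 genes. The stage 18 border mean of pitx1.L was 3.93, 0.207 above the background level, so the size of its fold is limited by that floor. In the same comparison irx1.L was 3.41-fold higher (adjusted p = 0.000978). From plate to stage 14 border dlx6.S rose 2.9-fold (adjusted p = 0.000431), and irx1.L was 1.55-fold higher (adjusted p = 0.0417), a call lost in 6 of 16 alternatives (adjusted p 0.0106 to 0.147). From stage 14 to stage 18 none of the 5 passed, where 6.56% of all probe sets did, and pitx1.L stood at -0.43 (SE 0.21, adjusted p = 0.291). Both eya1.L (3.59 and 3.42) and pitx3.S (2.65 and 2.67) lay within background at stages 14 and 18 of the border. That they did not pass thus does not show a steady level. Against the animal cap irx1.L was 19.7-fold higher as fitted in the stage 14 border (adjusted p = 6.25e-06). The single animal cap array read 3.865 for irx1.L, 0.142 above the background level, so the size of this fold is limited by that floor. The other 4 did not pass between stage 14 border and animal cap. In that comparison 30.9% of all probe sets passed, beside 5.97% at stage 18 and 41% from plate to stage 14 border.

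**Figure D5:**
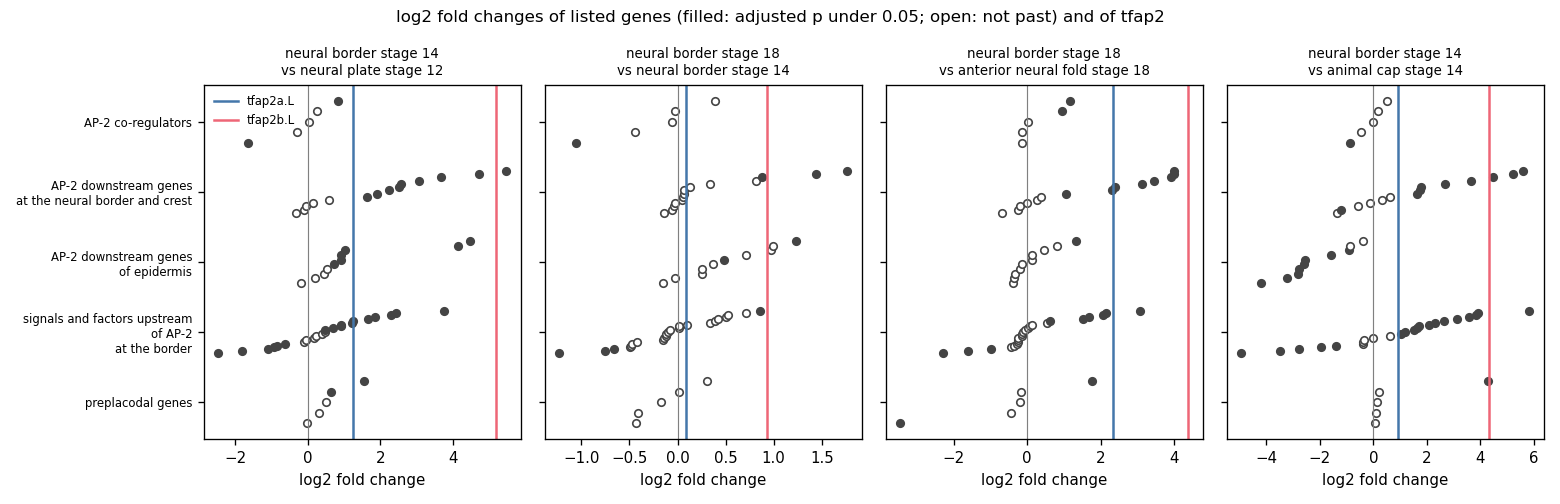
Log2 fold changes of the measured members of 5 gene lists in 4 comparisons, with 1 panel a comparison and 1 row a list. Each symbol is a gene by its brightest probe set, filled where it passed an adjusted p of 0.05 and open where it did not, and the vertical lines mark tfap2a.L (blue) and tfap2b.L (red). Against the animal cap the epidermal list lies to the left of 0, while both AP-2 lines lie to the right.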

How the data were processed

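RNA of 11 arrays in 5 groups was measured. The deposited table holds 15611 probe sets with log2 values from 2.13 to 13.56 and 0 missing. The authors' background correction, summary and normalization are not given in the sources used here. R 2.14.2 is named per the submitters' processing notes. That the values are log2 and on a common scale is read from their range and the array medians, and whether genes were centred or filtered before deposit is unknown. Whole-array values were not normalized again.

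The 120 control probe sets were left out of tests. Symbols came from the platform annotation (9304 probe sets with 1 symbol, 195 with several), updated by gene ID through the RefSeq table. Where a listed gene had several probe sets, the brightest on average was taken.

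limma 3.58.1 in R 4.3.3 fitted 1 mean per group over all 11 arrays, with eBayes (6 residual and 3.75 prior degrees of freedom) and two-sided p-values adjusted by Benjamini-Hochberg over 15491 probe sets within each of 10 comparisons, at a threshold of 0.05. The fit was tested on simulated data. Folds against a group within background were also computed with that group at the background level. Named genes were all members, the 5 genes most like each, all measured co-regulators and, in each other list and each of 4 comparisons, up to 4 members past the threshold with the largest change (or the 2 largest). The members and lists were chosen with earlier results of these data known.

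Alternatives were quantile normalization, median centring, leaving out probe sets never above background (12383 kept), only the arrays compared, a trended and robust eBayes step, the replicate number as a block, leaving out each array where its group kept 1, and for list counts the average over all probe sets of each gene.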

Additional observations from a re-analysis of the deposited data

How the results depend on the processing

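Of the 20 tfap2 differences, 17 kept their direction and their side of the threshold in all 16 alternatives, and the other 3, all of tfap2b.L, kept their direction. The stage 18 against stage 14 border difference of 0.93 passed with dim probe sets left out (0.93), with the trended eBayes step (0.93) and with only the arrays compared (0.93), and ranged from 0.81 to 1.06 when an array was left out. The plate against animal cap difference passed with only the arrays compared (-0.86) and ranged from -0.97 to -0.76 with an array left out. The anterior neural fold against animal cap difference passed after quantile normalization (0.99), without dim probe sets (0.87) and with the trended eBayes step (0.87), and ranged from 0.64 to 1.17. The changes of the tfap2b.L minus tfap2a.L difference kept their sign under quantile normalization and each left-out array. Median centring shifts both genes of an array alike and cannot change them.

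The number of probe sets past the threshold between stage 18 and stage 14 border fell from 1016 to 620 with the replicate block and 233 with only the arrays compared, which has fewer samples, and was 458 to 859 with an array left out. It was 543 to 1058 (from 925) for stage 18 border against anterior neural fold, 1402 to 2516 (from 2285) for anterior neural fold against stage 14 border, and 1974 with only the arrays compared (from 5148) for stage 18 border against animal cap. Differences near 0 turned sign when an array was left out. These were cited2.L in stage 14 border against plate (-0.66 to 0.049) and in stage 18 border against fold (-0.080 to 0.13), crebbp.L between border stages (-0.34 to 0.22), in border against fold (-0.41 to 0.17) and in border against animal cap (-0.056 to 0.080, and 0.021 with the replicate block), and yeats4.S in stage 14 border against plate (-0.16 to 0.21) and between border stages (-0.15 to 0.13). Their causes were not tested.

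Whether replicate numbers pair the arrays could not be settled. Deviations from group means correlated at -0.10 to 0.26 between the 13 pairs with the same number, 2 of them over 0.1. For pairs with different numbers the range was -0.28 to 0.28, and 4 of 10 arrays matched best with an array of their own number. In groups of 2 arrays the deviations mirror each other, so these pairs are not independent and cannot exclude a pairing. The replicate block changed no tfap2 call. The single animal cap array and, for tfap2b.L in plate and animal cap, the background level limit the values.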

Other observations

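Among the genes named beside the AP-2 genes, both copies of ets1, an ETS factor gene of migrating crest, were measured. Of 3 ets1 probe sets only 1 for each copy is shown, so the values do not speak for the copies as a whole. From plate to stage 14 border ets1.S rose at least 1.58-fold (adjusted p = 0.00246), while ets1.L differed by -0.06 (SE 0.25, adjusted p = 0.891). From stage 14 to stage 18 border ets1.L rose by 1.44 (SE 0.25, adjusted p = 0.00989), a call lost with only the arrays compared (adjusted p = 0.061), while ets1.S differed by 0.14 (SE 0.19, adjusted p = 0.758). The difference between the copies was not tested, and ets1.S lay within background outside the border.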
